A study of Mus musculus with 2 samples.

Results

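Cells holding the type II collagen transcript Col2a1 together with Sox9 made up 244 of the 6272 cells that passed the limits on quality, 90 in the control library and 154 in the mutant library. A cell was a member when it held at least 3 unique molecular identifiers (UMIs, counted molecules) of Col2a1, at least 1 of Sox9 and at least 1 of any of Col9a1, Col9a3, Col11a1, Acan and Matn1, with fewer than 2 of the lineage genes Cdh5, Pecam1, Epcam, Ptprc, Pax7 and Myog detected. Members were thus chosen by their UMIs of these 13 genes, so their differences from other mesenchyme describe the choice. The limits kept cells with more than 2000 and fewer than 9000 detected genes and under 10% mitochondrial UMIs. Other mesenchyme, the comparison class, was the 946 remaining cells with at least 2 of Prrx1, Twist1 and Pdgfra, under 3 UMIs of Col2a1 and the same limit on lineage genes (542 control and 404 mutant cells).

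The study placed the activating Pik3caH1047R allele, a mutant catalytic subunit of phosphoinositide 3-kinase, in cells descended from Isl1-expressing progenitors. It asked how the allele acts on endothelial cells in vascular malformations of the head and neck. Both libraries came from mouse embryos at E13.5 that carried the Isl1-Cre driver and the R26R-eYFP reporter. The control embryos were Isl1-Cre;R26R-eYFP and the mutant embryos Isl1-Cre;R26R-eYFP;Pik3caH1047R. Each library pooled the tissue above the liver of 3 embryos, sorted for eYFP, so it samples whatever the Isl1-Cre lineage holds in that region and not one tissue, although the labels name the pharyngeal arch. With 1 library per genotype no difference between genotypes could be tested against animals, and every interval below covers counting error only. The filtered control library held 2783 cells (median 20412 UMIs) and the filtered mutant library 3489 (median 16839). The members had medians of 17187 and 16204.5 UMIs and of 5086.5 and 4996 detected genes. The 2 libraries shared 28 cell barcodes, among them none of the control members and 2 of the mutant members.

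In cartilage formation, mesenchymal cells condense, switch on the transcription factor Sox9 with its partners Sox5 and Sox6, and then secrete a matrix of type II, IX and XI collagens, aggrecan (Acan), matrilins and link protein (Hapln1). Aggrecan carries sulfated glycosaminoglycan chains that hold water, and a fibrous layer rich in type I collagen, the perichondrium, surrounds the growing rod. Col2a1 and Sox9 are also transcribed outside cartilage during development, for example in the ear vesicle, the notochord and some gut and airway epithelia.

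Checked against genes that the rule did not require, the name cartilage-forming mesenchyme held for only part of these cells. Epcam is among the lineage genes, and the rule allowed it where no other of these was detected. Epcam, an adhesion molecule of epithelia, was detected in 34 of the 90 control members (37.8%, 95% exact binomial interval 27.8 to 48.6) and in 31 of the 154 mutant members (20.1%, 14.1 to 27.3). Of these Epcam-detected members, 27 in control and 22 in mutant had no UMI of Prrx1, Twist1 or Pdgfra. These cells were deeper than the other members, with medians of 22741 and 21664 UMIs. The level of Epcam, 320.7 CPM (UMIs of a gene per 1000000 UMIs of the class) over all control members and 161 CPM over all mutant members, exceeded that of other mesenchyme by log2 5.74 and 4.19. Genes of the inner ear were detected in part of them, of which Otor is also a gene of cartilage. At least 1 of Oc90 (an otolith protein), Tecta and Tectb (tectorins of the tectorial membrane), Otog and Otor was detected in 20 of the 34 control and 8 of the 31 mutant Epcam-detected members, against 9.41% and 9.65% of other mesenchyme and 8.48% and 4.09% of endothelial cells (Cdh5 and Pecam1 both detected, median 20915 and 18020 UMIs). As shares these were 58.8% (40.7 to 75.4) and 25.8% (11.9 to 44.6), beside 29.4% (15.1 to 47.5) and 8.33% (2.32 to 19.98) of the Col2a1-high members and 13.6% (2.91 to 34.9) and 17.3% (9.57 to 27.8) of the Col2a1-low members, the groups without Epcam defined below. The mutant intervals of the Epcam-detected and the other members overlapped, as did the control intervals of the Epcam-detected and the Col2a1-high members. Sftpc, a surfactant gene, or Nkx2-1, a factor of lung and thyroid endoderm, was detected in 8 and 3 of them. Otog, Sftpc and Nkx2-1 and the grouping of these genes were chosen after their values were seen. The members are therefore called by their rule, as Col2a1/Sox9 cells, and are split below into 3 groups, also chosen after the values were seen: Epcam-detected (34 and 31 cells), Col2a1-high without an Epcam UMI (10 or more Col2a1 UMIs, 34 and 48 cells) and Col2a1-low without an Epcam UMI (3 to 9 UMIs, 22 and 75 cells).

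Col2a1 (ENSMUSG00000022483, GRCm38 chr15:97975602-98004695) ranged from 3 to 375 UMIs in control members and from 3 to 86 in mutant members, with medians of 8 and 7. Scaled to 10000 UMIs of the cell, its median was 7.41 in control and 4.56 in mutant members. In the Col2a1-high cells the median was 39.9 per 10000 in control and 12.9 in mutant. In the Col2a1-low cells it was 2.36 and 3.03, and in the Epcam-detected cells 3.24 and 3.18. Col2a1 chose the members and cut these groups, with the Col2a1-low cells held to 3 to 9 UMIs, so the medians describe the groups and show nothing about where the libraries differ. The ranges of all 3 groups overlapped between the libraries. At the limit itself, 13 control and 20 mutant members held exactly 3 Col2a1 UMIs (median Sox9 3 and 2 UMIs, second genes 9 and 2.5), and 24 and 35 cells that met every other criterion held 2 (median Sox9 3 and 2, second genes 5 and 3). The need for Sox9 removed 60 control and 126 mutant cells with 3 or more Col2a1 UMIs, the need for a second gene 4 and 30, and the lineage genes 18 and 26.

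**Figure D1:**
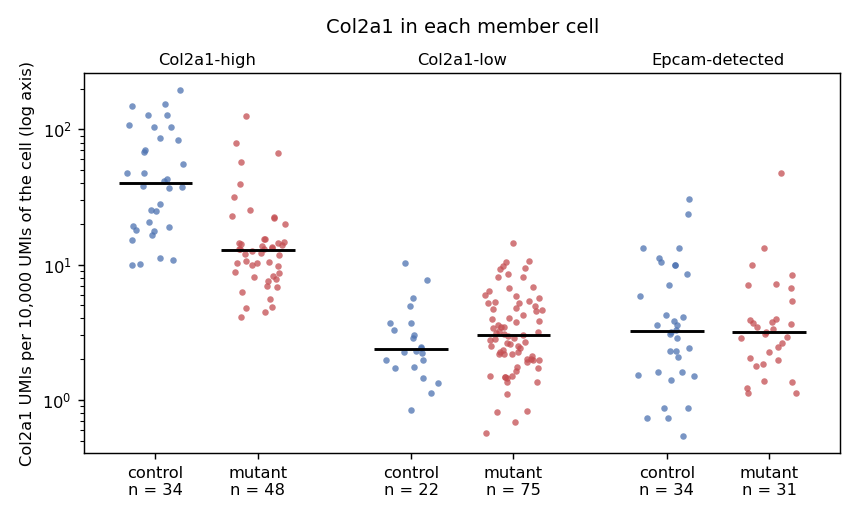
Each point is 1 member cell, placed by its Col2a1 UMIs per 10000 UMIs of the cell (log axis), with members split into Col2a1-high, Col2a1-low and Epcam-detected cells of each library and a bar at the median. The medians are 39.9 in control and 12.9 in mutant Col2a1-high cells, and lie between 2.36 and 3.24 in the other 4 groups.

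Members were 3.23% of the filtered control cells (2.61 to 3.96) and 4.41% of the filtered mutant cells (3.76 to 5.15). With every cell thinned to 5000 UMIs before the rule was applied, 61 control and 173 mutant cells being too shallow, they were 42 of 2722 (1.54%, 1.11 to 2.08) and 71 of 3316 (2.14%, 1.68 to 2.69). As a share of members plus other mesenchyme they were 14.2% (11.6 to 17.2) of 632 and 27.6% (23.9 to 31.5) of 558. The other classes differed in share as well. Other mesenchyme was 19.5% of control and 11.6% of mutant cells, and endothelial cells were 5.93% and 20.3%. Of the 3 groups, Col2a1-low cells differed most in share, at 0.791% of filtered control cells (0.496 to 1.19) and 2.15% of filtered mutant cells (1.69 to 2.69). Col2a1-high cells were 1.22% (0.848 to 1.70) and 1.38% (1.02 to 1.82), and Epcam-detected cells 1.22% (0.848 to 1.70) and 0.889% (0.604 to 1.26). Of members plus other mesenchyme, Col2a1-low cells were 3.48% and 13.4%, Col2a1-high cells 5.38% (3.75 to 7.44) and 8.60% (6.41 to 11.2), and Epcam-detected cells 5.38% and 5.56%. Of members alone, Col2a1-low cells were 24.4% (15.997 to 34.6) and 48.7% (40.6 to 56.9), and Col2a1-high cells 37.8% (27.8 to 48.6) and 31.2% (24.0 to 39.1).

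Within each library, the ratios of members to other mesenchyme are a description, since the members were chosen on cartilage genes. Of 11598 genes, 45 (0.388%) were past 4-fold higher in both libraries and 25 (0.216%) past 4-fold lower. The 12 highest, ranked by the smaller of the 2 ratios among genes with 100 or more CPM in the higher class of each library, were Oc90, Col2a1, Epcam, Matn4, Col9a3, Wwp2, Col9a2, Col9a1, Sox5, Sox6, Sox9 and Spint2. Among genes outside the rule, the matrilin Matn4 was above other mesenchyme by log2 5.35 in control and 3.73 in mutant, the type IX collagen chain Col9a2 by 4.04 and 2.47, and Wwp2, a ubiquitin ligase gene that is host to the cartilage microRNA miR-140, by 3.38 and 2.75. Sox5, which works with Sox9, was above by 3.65 and 2.09 and Sox6 by 3.73 and 1.98. Oc90, at 8.97 and 8.17, came from few cells: it was detected in 7 members of each library, and 5 cells held 99.4% and 98.5% of its UMIs. Spint2, a protease inhibitor of epithelia, was above by 2.85 and 1.55 over all members but stood at −0.58 and −0.11 in members without an Epcam UMI. Without the Epcam-detected cells, 20 genes (0.172%) were past 4-fold higher in both libraries and 32 (0.276%) past 4-fold lower, so over all members the count of higher genes rests in large part on those cells. The 12 furthest below by the same ranking were Acta2, Col3a1, Lgals1, Dcn, Myl9, Tpm2, Igfbp3, Akap12, S1pr3, Nav3, Tmem132c and Arhgap6, of which Acta2 alone was past 4-fold in both libraries. The smooth muscle actin Acta2 stood at log2 −3.87 and −2.26 against other mesenchyme, the type III collagen Col3a1 at −1.29 and −1.23 and galectin 1 (Lgals1) at −1.57 and −1.14.

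Between genotypes, the members of the mutant library had much lower levels of cartilage matrix transcripts and higher levels of genes of the hypoxia response and glycolysis. Of 10253 genes with at least 50 UMIs over both libraries, 297 (2.9%) were past 2-fold higher in mutant members and 398 (3.88%) past 2-fold lower, around a median log2 ratio of 0.01. All ratios between genotypes below are log2 of mutant over control CPM, from UMIs summed over the cells of a class. Other mesenchyme had 581 of 13073 genes (4.44%) past 2-fold higher and 585 (4.47%) lower, and its markers of other cell types, given at the end, differed between the libraries too.

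The 7 genes of the rule are given as a description, since every member had to hold Col2a1, Sox9 and a second gene and their levels within members are shaped by that choice. Sox9 was at 458 CPM in control and 385 in mutant members (log2 −0.25, interval −0.38 to −0.13). Col2a1 was at 2028 and 618 CPM (log2 −1.71, −1.79 to −1.63). Its partners in the collagen fibril were lower too, Col9a1 at 697 and 225 CPM (−1.63), Col9a3 at 1334 and 227 (−2.55) and Col11a1 at 1081 and 244 (−2.15). The widest differences were those of matrilin 1 and aggrecan. Matn1 (ENSMUSG00000040533, GRCm38 chr4:130944385-130955475) had 540 UMIs in 15 control members and 19 UMIs in 5 mutant members, or 272 and 6.25 CPM (log2 −5.44, −6.19 to −4.78). Acan was at 97.2 CPM in 27 control members and 4.94 CPM in 10 mutant members (−4.30, −5.16 to −3.54). In other mesenchyme, whose definition caps Col2a1, Sox9 was instead higher in the mutant library (57.3 and 103 CPM, log2 0.84), as was Col9a1 (9.39 and 46.2 CPM, 2.30). In the Epcam-detected members the rule genes did not follow this pattern: 0 of the 5 compared were past 2-fold, Col2a1 at a ratio of 0.16 and Sox9 at 0.05. All 5 matrix genes outside the rule that could be compared there were nevertheless past 2-fold lower (median −1.73, 1115 and 256 CPM over the list). There 232 of 6440 genes (3.6%) were past 2-fold higher and 234 (3.63%) lower.

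Matrix genes outside the rule went the same way. Of 17 listed genes, 11 had enough UMIs to be compared in members, and all 11 were past 2-fold lower (median −3.06), with 3061 CPM over the list in control and 525 in mutant members. The other 6 were too low to compare, among them Comp with 3 and 0 UMIs and Snorc with 7 and 11. Col9a2, the most abundant, was at 745 and 183 CPM (−2.03, −2.17 to −1.88). Matn4 was at 611 and 131 CPM (−2.23, −2.39 to −2.06), and was detected in 53 control and 55 mutant members. Chondromodulin (Cnmd), a glycoprotein of avascular cartilage that inhibits vessel growth, was at 449 CPM in 51 control members and 24.7 CPM in 20 mutant members (−4.19, −4.54 to −3.84). Of the control members with Cnmd, 24 were Epcam-detected, 22 Col2a1-high and 5 Col2a1-low, and of the mutant members 4, 14 and 2. Its detection over all members thus also depends on the share of Epcam-detected cells, which differed between the libraries. Link protein (Hapln1), which ties aggrecan to hyaluronan, was at 283 and 24.0 CPM (−3.56, −3.93 to −3.21). Mia, a small secreted cartilage protein, stood at −2.60, the type XI collagen chain Col11a2 at −3.50, the small proteoglycan Epyc at −4.25, Matn3 at −3.06 and Col27a1 at −1.95. Read at 5000 UMIs per cell, Cnmd was detected in 50.6% of control and 7.89% of mutant members (56.7% and 12.99% unthinned), against 0% and 0.583% of thinned endothelial cells. In other mesenchyme 8 of the genes were compared, 1 past 2-fold higher and 3 lower (median −0.61). Cnmd was among the lower there too, with 125 UMIs in 44 of 542 control cells and 6 UMIs in 5 of 404 mutant cells. Hapln1 differed in sign between the classes, at −3.56 in members and 2.47 in other mesenchyme (5.13 and 28.5 CPM), and in members without an Epcam, Matn1 or Acan UMI it was at 21.5 and 22.1 CPM.

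Values in the Col2a1-high cells, here and below, are a description and no independent support. The group is cut on a gene of the rule that was itself lower in mutant members, and its cells held medians of 77 Col2a1 UMIs in control (quartiles 33.25 and 151.5) and 17 in mutant (13.75 and 24), so unlike cells are set side by side. There, all 11 matrix genes compared were past 2-fold lower (median −3.03, 6826 and 1197 CPM over the list), and 251 of 5863 genes (4.28%) were past 2-fold higher and 335 (5.71%) lower. Matn4 was at 1551 and 302 CPM, Cnmd at 971 and 55.2, and Hapln1 at 807 and 52.7. The factors were closer between libraries in the same cells, with Sox9 at 813 and 640 CPM (−0.34), Sox5 at 1218 and 549 (−1.15), Sox6 at 867 and 314 (−1.46) and Trps1 at 411 and 391 (−0.07). In the Col2a1-low cells 3 of 4 matrix genes compared were past 2-fold lower (median −1.30), in a class where 332 of 6487 genes (5.12%) were past 2-fold higher and 282 (4.35%) lower.

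**Figure D2:**
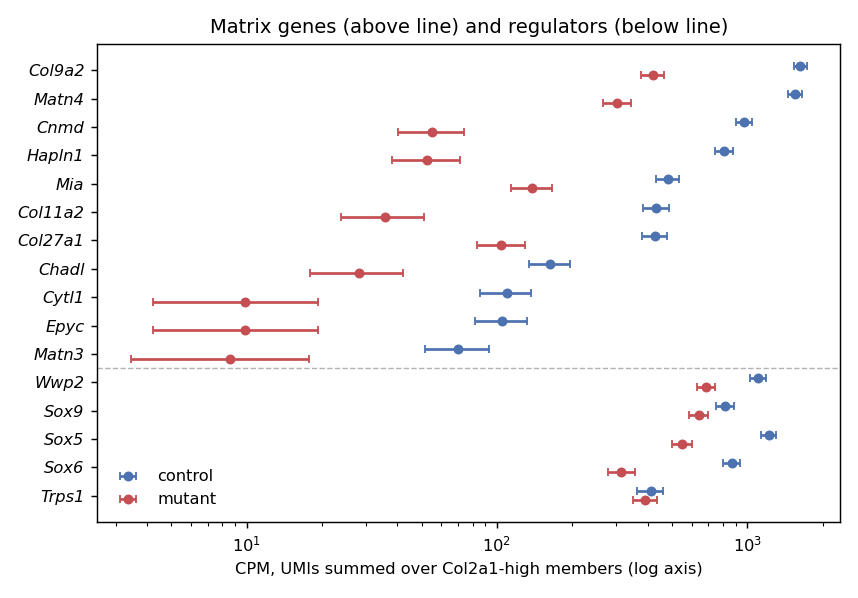
CPM of 11 matrix genes (above the dashed line) and 5 regulators (below it) from UMIs summed over the Col2a1-high members of each library, on a log axis, with 95% Poisson intervals that cover counting error only. Every matrix gene drawn is lower in the mutant library, with Cnmd at 971 and 55.2 CPM, while Trps1 is at 411 and 391 CPM.

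Cells with Matn1 or Acan, genes of overt cartilage, were then set apart. Both are genes of the rule and had the widest differences among them, and the split was chosen after those values were seen, so what follows describes the cells and adds no support. They were 27 of 90 control members (30.0%, 20.8 to 40.6) and 11 of 154 mutant members (7.14%, 3.62 to 12.4), beside 1.21% and 0.705% of endothelial cells. At 5000 UMIs per cell, Acan was detected in 19.1% of control and 3.95% of mutant members, against 0% and 0.437% of endothelial cells. Among Col2a1-high cells they were 25 of 34 (73.5%, 55.6 to 87.1) and 10 of 48 (20.8%, 10.5 to 35.0). Without the Epcam-detected cells, 25 control and 11 mutant members remained, with medians of 17111 and 11959 UMIs. Each of the 9 cartilage matrix genes summed in these cells was nearer between libraries than over all members, and each was still lower in the mutant cells. Col2a1 was at 5844 CPM (5645 to 6048) in the control and 3289 CPM (2998 to 3600.1) in the mutant cells. Col9a3 was at 3944 and 1234 CPM, Col9a2 at 1833 and 631, Matn4 at 1701 and 1122, Cnmd at 1120 and 245 and Hapln1 at 980 and 175. The factors of these cells were at similar levels, with Sox9 at 905 CPM (828 to 987) and 1136 (968 to 1325), Sox5 at 1318 and 1269 and Sox6 at 959 and 1073. In the remaining 31 control and 112 mutant cells without Epcam, Matn1 or Acan, Hapln1 was at 21.5 CPM (10.7 to 38.5) and 22.1 CPM (16.2 to 29.5) and Col11a2 at 9.77 and 6.74, each within counting error. Of the other matrix genes there, Col2a1 was at 813 and 513 CPM, Col9a1 at 387 and 219, Col9a2 at 367 and 190, Col9a3 at 453 and 196, Col11a1 at 465 and 194, Matn4 at 403 and 106 and Cnmd at 117 and 5.78. Sox9 was at 418 and 400.0 CPM in these cells, Sox5 at 448 and 371 and Sox6 at 348 and 210. Detection depends on level, so the share of such cells and the level within them are not independent.

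Enzymes that build and sulfate glycosaminoglycan chains were lower in part. Of 21 listed genes 19 were compared in members, 0 past 2-fold higher and 7 lower (median −0.69), and in the Col2a1-high cells 8 of 13 were past 2-fold lower (median −1.41). Csgalnact1, which starts chondroitin chains, was at 93.6 and 8.56 CPM (−3.45), Papss2, which makes the sulfate donor, at 94.1 and 18.4 (−2.35), and Xylt1, which attaches the first sugar to the core protein, at 94.6 and 30.3 (−1.64). In other mesenchyme 3 of 20 genes of this list were past 2-fold lower (median −0.23), and Papss2 was at 0.58. Of 27 genes for collagen folding, crosslinking and secretion, 25 were compared, 1 past 2-fold higher and 7 lower (median −0.58, and −0.46 in other mesenchyme). The collagen chaperone Serpinh1 was at 1315 and 870 CPM (−0.59). The prolyl hydroxylase subunits P4ha1 and P4ha2, which are also hypoxia-induced, went the other way at 0.93 and 1.05.

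Summed over cells, fibrous and perichondrial matrix was lower in members and other mesenchyme alike. Of 18 listed genes 17 were compared in members, 1 past 2-fold higher (Twist2, a repressor of mesenchymal differentiation, 1.02) and 13 lower (median −1.49, 6745 and 2083 CPM over the list). Other mesenchyme had 13 of 18 past 2-fold lower (median −1.58). Col1a1, the main chain of type I collagen, was at 1742 and 318 CPM in members (−2.46, −2.56 to −2.35) and at 2373 and 733 in other mesenchyme (−1.70). Dcn was at 298 and 49.0 CPM in members (−2.60) and at 841 and 128 in other mesenchyme (−2.72). As sums, Col1a1 and Dcn were thus lower in both classes, as was the cartilage gene Cnmd, unlike Hapln1 or Papss2.

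Chondrogenic regulators as a list were lower too, by less than the matrix genes. Of 20 listed, 13 were compared in members, 0 past 2-fold higher and 1 lower (median −0.29). Only 2 of the 13 had a ratio above 0, and the list summed to 2289 and 1659 CPM. The lower quartile over all genes compared in members was −0.25. In Col2a1-high cells 3 of 11 were past 2-fold lower and 1 was above 0 (median −0.68, 4438 and 2602 CPM over the list). Sox5 was at 550 and 347 CPM (−0.66, −0.79 to −0.54), Sox6 at 410 and 230 (−0.83, −0.98 to −0.69), Wwp2 at 454 and 327 (−0.47) and Trps1, a zinc finger factor of chondrocytes, at 282 and 261 (−0.11). In members without a UMI of Mki67 or Top2a the ratios of Sox5 and Sox6 were −0.04 and 0.02. Genes of hypertrophy and bone were near the floor: 3 of 14 were compared, 0 past 2-fold higher and 1 lower (median −0.83), and the hypertrophic collagen Col10a1 had 0 UMIs in control and 1 in mutant members. The receptor Fgfr3, which restrains cartilage growth, was at 47.8 and 27.0 CPM (−0.83), and Pthlh, a secreted signal of the growth plate and also of epithelia, was at 33.7 and 2.30 CPM (−3.87). Of its 67 UMIs in control members, 59 lay in 9 Epcam-detected cells, where it was at 64.4 and 2.45 CPM. Col2a1-high cells held 6 and 4 UMIs of it and Col2a1-low cells 2 and 1.

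The signalling lists held few genes past 2-fold. Over all genes compared in members, 2.9% were past 2-fold higher and 3.88% lower. Of 12 hedgehog genes 10 were compared, 0 past 2-fold higher and 1 lower (median 0.22). The lower gene was the ligand Shh (20.1 and 5.27 CPM, −1.93), found in 9 control and 3 mutant members and at 0 UMIs in all Col2a1-high cells. The receptor and target Ptch1 was at 80.6 and 128 CPM (0.67), and in Col2a1-high cells at 75.7 and 205 (1.44). Of 19 BMP and GDF pathway genes 17 were compared, 1 higher and 0 lower (median 0.05). That gene was the BMP antagonist Grem1, at 7.05 and 22.7 CPM (1.69). Of 15 FGF genes 12 were compared, 0 higher and 2 lower (median −0.61). The FGF target Etv5 was at 124 and 35.2 CPM over all members (−1.82) but at 37.9 and 39.2 in Col2a1-high cells (0.05). Of 28 genes of the PI3K, AKT and mTOR pathway 26 were compared, 0 higher and 1 lower (median −0.09). Pik3ca itself, whose UMI counts do not separate the alleles, was at 39.3 and 42.8 CPM (0.12, −0.29 to 0.55).

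Targets of the hypoxia-inducible factors (HIF) were higher in mutant members. Of 30 listed targets outside glycolysis 29 were compared, 20 past 2-fold higher and 0 lower (median 1.43), with 1579 CPM over the list in control and 3985 in mutant members. The list was also higher in other mesenchyme, with 22 of 29 past 2-fold (median 1.65, 1255 and 4217 CPM), and in Col2a1-high cells, with 15 of 19 (median 1.34). Bnip3, a mitophagy receptor, was at 68.0 CPM in 50 control members and 349 CPM in 130 mutant members (2.36, 2.10 to 2.63). Ddit4, which restrains mTORC1, was at 85.6 and 472 CPM (2.46, 2.23 to 2.70). The vascular growth factor Vegfa was at 53.9 and 188 CPM (1.80, upper bound 2.11), found in 50 and 117 members. Ndrg1, a stress-induced gene, was at 3.19, Egln3, the oxygen-sensing prolyl hydroxylase, at 2.93, the carbonic anhydrase Car9 at 3.76 (3 and 62 UMIs), Ero1l, an oxidase of disulfide formation, at 2.45 and Ankrd37 at 2.18. Across 15 alternative settings, the lowest ratios of Ndrg1 and Ero1l were 0.72 and 0.49, both within 2-fold.

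Glycolysis followed. Of 21 genes, all were compared, 11 past 2-fold higher and 1 lower (median 1.06), with 5724 CPM over the list in control and 11118 in mutant members, and in other mesenchyme 19 of 21 were past 2-fold higher (median 1.46). The glucose transporters Slc2a1 and Slc2a3 were at 104 and 264 CPM (1.34) and at 5.54 and 71.1 CPM (3.68). Among the enzymes, aldolase A (Aldoa) was at 429 and 1254 CPM (1.55, 1.44 to 1.65), phosphoglycerate kinase (Pgk1) at 283 and 786 (1.47, 1.34 to 1.61) and lactate dehydrogenase A (Ldha) at 896 and 1749 (0.97, 0.89 to 1.04). Aldoc, the aldolase form of the nervous system, was the lower gene at 37.3 and 14.8 CPM (−1.33).

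HIF binds DNA at a short motif. The form searched here was ACGTG, or CACGT when read on the other strand, and no other form of the motif was counted or marked. In the 250 bases before the annotated starts in RefSeq (GRCm38.p6), ACGTG on either strand stood in 18 of the 34 promoters (52.9%) listed for 26 of the 31 HIF and glycolysis genes past 2-fold higher, in 3 of 13 (23.1%) for the 11 lower matrix genes, and in 5444 of all 32851 promoters (16.6%). ACAAT, the core of the motif bound by Sox proteins, stood in 4 of the 13 matrix promoters (30.8%), in 3 of the 34 (8.82%) and in 27.7% of all. The lists were known HIF targets, so the share describes the genes and not binding in these cells. A match is no proof of a site. The following 250 bases, shown as examples of promoters that hold the motif, are written 5′ to 3′ on the strand of the gene, with each ACGTG or CACGT in capitals. They are Bnip3 at chr7:138909507-138909756 on the minus strand, Ankrd37 at chr8:45999851-46000100 on the minus strand, Pgk1 at chrX:106186850-106187099 on the plus strand and Ldha at chr7:46845554-46845803 on the plus strand (of 2 listed starts, the one with more matches). They were picked by hand and do not stand for the list, in which 16 of the 26 matched genes hold the motif. Nor are they the genes with the widest differences, and Ldha, at 0.97, is not past 2-fold.
Bnip3: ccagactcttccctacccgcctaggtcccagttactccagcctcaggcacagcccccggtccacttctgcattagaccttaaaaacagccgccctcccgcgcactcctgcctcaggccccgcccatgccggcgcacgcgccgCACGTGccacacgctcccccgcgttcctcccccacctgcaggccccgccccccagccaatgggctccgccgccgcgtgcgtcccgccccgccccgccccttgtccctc
Ankrd37: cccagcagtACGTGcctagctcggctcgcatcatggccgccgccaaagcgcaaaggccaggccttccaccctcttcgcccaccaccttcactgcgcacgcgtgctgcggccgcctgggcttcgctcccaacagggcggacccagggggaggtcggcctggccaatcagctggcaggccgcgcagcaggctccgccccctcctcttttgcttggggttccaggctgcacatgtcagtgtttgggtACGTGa
Pgk1: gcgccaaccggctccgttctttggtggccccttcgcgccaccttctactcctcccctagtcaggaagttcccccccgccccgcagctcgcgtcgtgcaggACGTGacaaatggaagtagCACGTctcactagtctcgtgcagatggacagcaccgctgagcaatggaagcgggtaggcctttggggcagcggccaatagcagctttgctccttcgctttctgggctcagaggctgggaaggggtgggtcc
Ldha: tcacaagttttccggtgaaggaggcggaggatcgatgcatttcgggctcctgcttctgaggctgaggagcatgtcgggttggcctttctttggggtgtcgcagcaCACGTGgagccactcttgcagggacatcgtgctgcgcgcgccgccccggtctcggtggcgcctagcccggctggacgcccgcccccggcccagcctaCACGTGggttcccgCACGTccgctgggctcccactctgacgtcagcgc
CACGTG reads as a match on both strands, which gives Bnip3 2 matches and Ldha 5. Ankrd37 and Pgk1 have 2 separate matches each.

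The sex of the cells differed between the pools and moved with these lists. All 90 control members were female-like (a UMI of Xist and none of the Y-linked Ddx3y, Uty, Kdm5d and Eif2s3y), as were 2659 of the 2783 filtered control cells. The mutant members were 64 female-like, 77 male-like and 13 with both or neither. In members without an Epcam UMI, the HIF targets summed to 1748 CPM in control female-like, 2609 in mutant female-like and 4542 in mutant male-like cells. In other mesenchyme the same sums were 1256, 2437 and 5102 CPM. Glycolysis stood at 4839, 9649 and 10875 CPM in the members and at 4201, 8351 and 12239 in other mesenchyme. Female-like mutant cells therefore lay between the control cells and the male-like mutant cells in each case. With female-like members alone, 7 of 23 HIF targets (median 0.75) and 3 of 17 glycolysis genes (median 0.78) were past 2-fold higher, while all 11 matrix genes were still past 2-fold lower (median −2.73). Over all members, 2.9% of genes were past 2-fold higher and 3.88% lower. No such share is given for female-like members alone, so these counts have no background of their own. Bnip3 was at 68.0, 241 and 460 CPM over all members of the 3 kinds, Ndrg1 at 11.6, 25.7 and 193, and Slc2a3 at 5.54, 16.9 and 126. For the matrix list the counting intervals of the female-like and male-like mutant cells overlapped, at 3061, 545 and 539 CPM over all members and 4725, 686 and 643 in members without an Epcam UMI. Among single matrix genes Matn1 was at 272, 14.4 and 0.698 CPM, Hapln1 at 283, 37.7 and 17.4, Cnmd at 449, 40.1 and 15.4 and Col9a3 at 1334, 219 and 244. In other mesenchyme, Hapln1 was at 5.10, 59.7 and 14.6 CPM in the same 3 kinds of cells. In the mutant pool the sexes come from different embryos, so sex and embryo cannot be told apart.

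**Figure D3:**
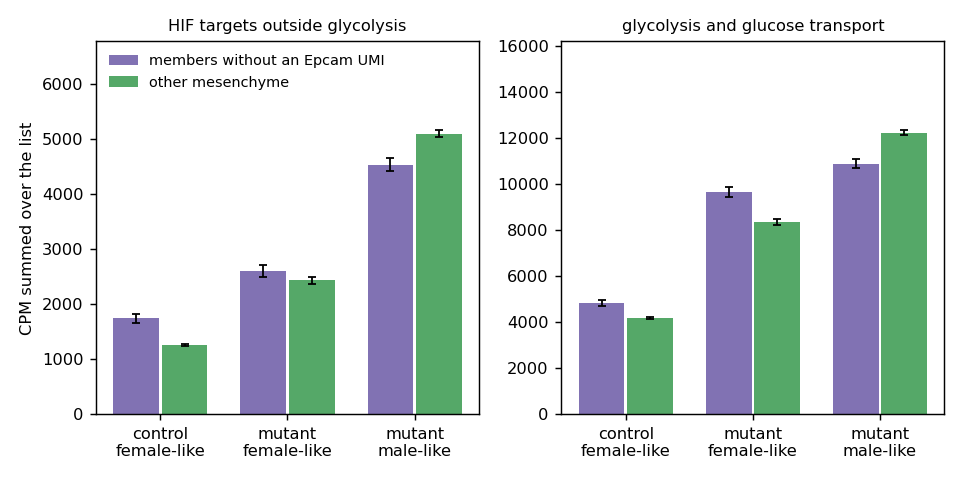
Bars give CPM summed over the HIF targets outside glycolysis (left) and over glycolysis and glucose transport (right) for members without an Epcam UMI and for other mesenchyme, in control female-like, mutant female-like and mutant male-like cells, with 95% Poisson intervals that cover counting error only. Members stand at 1748, 2609 and 4542 CPM on the left and at 4839, 9649 and 10875 CPM on the right.

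Of the stress and cycle lists, heat shock held the widest single differences. Cytosolic heat shock genes had 4 of 10 past 2-fold higher and 0 lower (median 0.54, and 0.45 in other mesenchyme). Hspa1a and Hspa1b, near-identical neighbouring copies of the inducible HSP70 gene whose reads cannot be shared out with certainty, were at 15.1 and 410 CPM (4.76) and at 9.57 and 343 CPM (5.16), while the constitutive Hspa8 was at 610 and 581 (−0.07). In other mesenchyme Hspa1a was at 45.2 and 276 CPM (2.61). Immediate early genes, which tissue dissociation can induce, had 0 of 12 higher and 1 lower (median −0.43), and ER stress genes 0 of 14 in either direction (median −0.09). Genes of S phase had 0 of 16 in either direction (median 0.02) and genes of G2 and M phase 1 of 17 higher (median 0.56). In Col2a1-low cells, G2 and M phase had 9 of 17 past 2-fold higher (median 1.41, 1166 and 2406 CPM over the list), and the muscle markers given below were also higher in these cells.

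**Figure D4:**
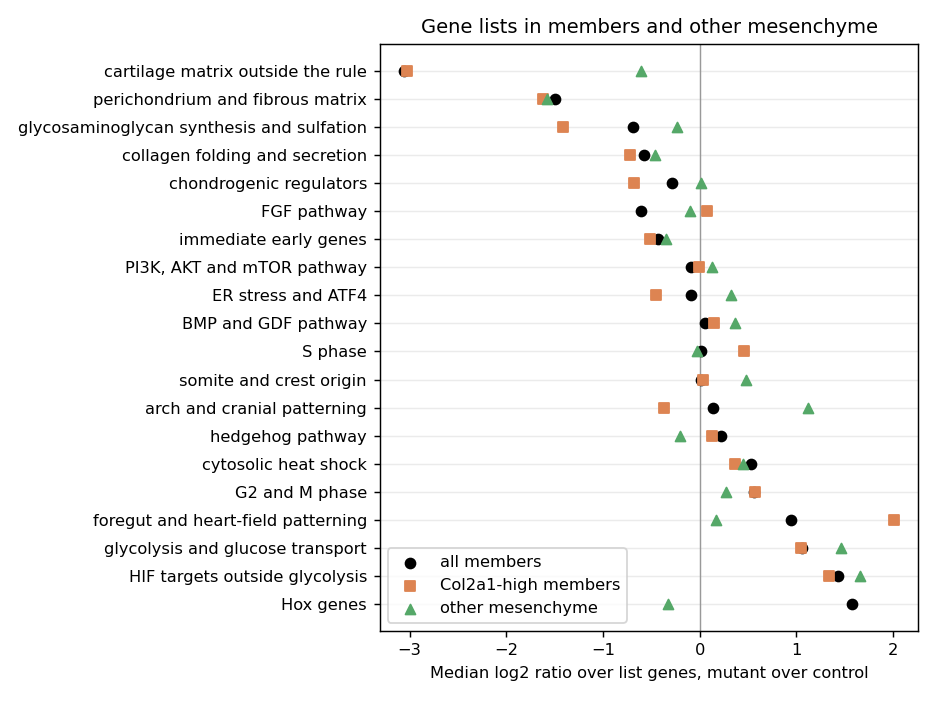
Median log2 ratio of mutant over control CPM over the genes of each list that had 50 or more UMIs, in all members, in Col2a1-high members and in other mesenchyme, with lists of under 3 compared genes not drawn. Cartilage matrix lies at −3.06 in members and −0.61 in other mesenchyme, while HIF targets lie at 1.43 and 1.65.

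Regional genes, which record where a cell sits along the body and which the rule did not use, also differed. Of 19 genes of foregut and heart-field patterning 14 were compared, 6 past 2-fold higher in mutant members and 0 lower (median 0.94, and 0.17 in other mesenchyme), and in Col2a1-high cells 7 of 8 were higher (median 2.01). In Col2a1-low cells 3 of 10 were higher and 2 lower (median −0.05, 672 and 727 CPM over the list). Over all members the list summed to 324 CPM in control female-like, 396 in mutant female-like and 851 in mutant male-like cells. Foxf1 and Foxf2, forkhead factors of the mesenchyme around gut and airway, were at 11.1 and 77.7 CPM (2.81, 2.18 to 3.51) and at 12.6 and 51.0 CPM (2.02). Their ratios in other mesenchyme were 0.38 and −0.83. Tcf21, a factor of lung, branchial muscle and heart-lining mesenchyme, was at 2.31 in members and −0.73 in other mesenchyme, Tbx5, a factor of heart, lung and forelimb, at 1.52 and −0.41, and Hand2, of arch and heart field, at 2.85 and 0.75. With cells thinned to 5000 UMIs, Foxf1 was detected in 8.99% of control and 20.4% of mutant members (12.2% and 26.6% unthinned), against 12.3% and 2.92% of endothelial cells. Foxf2 was detected in 5.62% and 17.1% (endothelial 1.85% and 1.46%), Tcf21 in 2.25% and 13.8% (3.09% and 0.146%) and Hand2 in 4.49% and 15.8% (1.85% and 6.12%). The control shares of Tcf21 and Foxf1 lay below those of control endothelial cells. Foxf1 is also known from endothelium, and its endothelial share differed between libraries, so it gives no common background level.

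Of 25 Hox genes, 6 were compared in members, 5 past 2-fold higher and 0 lower (median 1.57), against 0 higher and 3 lower of 20 in other mesenchyme (median −0.33). The list summed to 110.8 CPM in control female-like, 195 (171 to 221) in mutant female-like and 351 (321 to 383) in mutant male-like members, and to 195 (170 to 224), 265 (232 to 301) and 429 (391 to 469) CPM without the Epcam-detected cells. The 5 genes belonged to the anterior part of the clusters: Hoxa2 was at 4.53 and 21.1 CPM (2.22, 1.20 to 3.41), Hoxb4 at 12.1 and 37.9 (1.65), Hoxb2 at 7.55 and 23.4 (1.63), Hoxb3 at 9.57 and 27.3 (1.51) and Hoxa5 at 12.1 and 28.3 (1.23). At least 1 Hox gene was detected in 37 of 90 control members (41.1%, 30.8 to 52.0) and 104 of 154 mutant members (67.5%, 59.5 to 74.8), and in 86.3% and 69.6% of other mesenchyme and 62.4% and 45.6% of endothelial cells. The control share was thus below that of endothelial cells and the mutant share above it. At 5000 UMIs per cell, Hoxb4 was detected in 2.25% of control and 12.5% of mutant members (endothelial 8.02% and 4.81%). The Epcam-detected members had the smallest share, 4 of 34 and 11 of 31, and Col2a1-high cells had 17 of 34 (50%, 32.4 to 67.6) and 35 of 48 (72.9%, 58.2 to 84.7). Col2a1-low cells differed little, with 16 of 22 (72.7%, 49.8 to 89.3) and 58 of 75 (77.3%, 66.2 to 86.2), and with 0 of 5 Hox genes past 2-fold (median 0.10, 370 and 358 CPM over the list).

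Arch and cranial genes were mixed. Of 26 listed, 15 were compared, 2 past 2-fold higher and 1 lower (median 0.14), against 13 of 23 higher in other mesenchyme (median 1.12). Six2, a factor of cranial and arch mesenchyme, was detected in 30.3% of thinned members in both libraries, and in 8.05% and 23.6% of other mesenchyme. Goosecoid (Gsc), of the lower jaw and ear region, was at 10.1 and 35.2 CPM (1.81). Pou3f3 (Brn1), of the upper jaw and ear, went the other way in members, at 23.2 and 6.91 CPM (−1.74, −2.56 to −0.97), and was at 5.04 and 10.9 CPM in other mesenchyme (1.12). Of 12 genes of somite and crest origin, 8 were compared, 1 higher and 1 lower (median 0.02). The crest and glial factor Sox10 was the lower gene (59.9 and 27.0 CPM, −1.15). No source marks the embryonic position of a cell, so a different mix of cartilage sites and a different level at one site cannot be told apart.

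**Figure D5:**
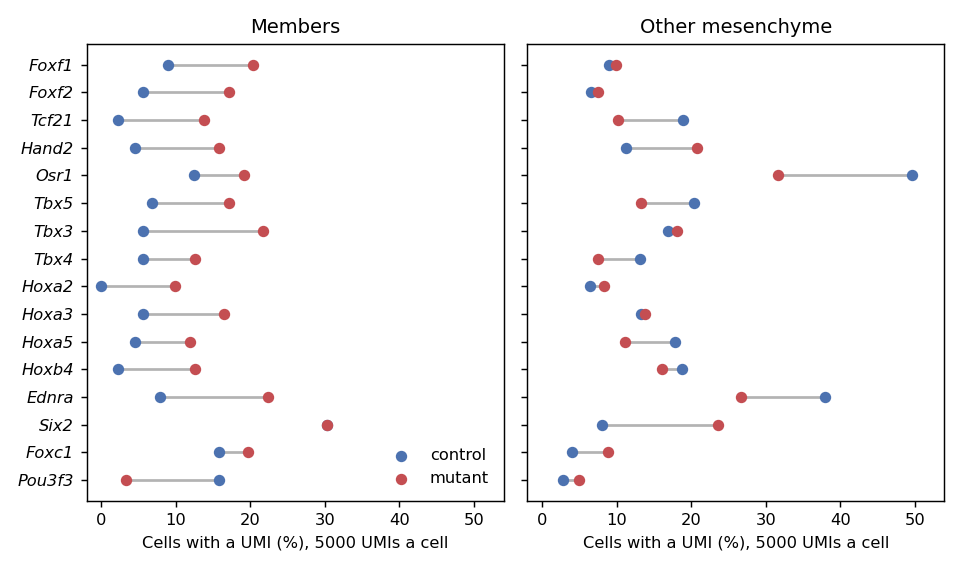
Percent of cells with at least 1 UMI of each of 16 patterning genes after thinning to 5000 UMIs, in members (left) and other mesenchyme (right), with control and mutant joined by a line. Tcf21 goes from 2.25% to 13.8% in members and from 18.9% to 10.1% in other mesenchyme, while Six2 is at 30.3% in members of both libraries.

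Some of the single genes with the widest differences lay in small groups of cells. The 12 furthest below in mutant members were taken among genes with 50 or more CPM in the higher library and a counting interval beyond 1.5-fold. Of these, Tecta (60.9 and 0.658 CPM, −6.53), Fbxo2 (102 and 5.93 CPM, −4.11), the basal keratin Krt14 (112 and 6.25 CPM, −4.17), Krt17 (66.0 and 1.65 CPM, −5.32) and clusterin (Clu, 532 and 30.3 CPM, −4.14) lay mostly in Epcam-detected cells. Tectb had 149 UMIs in 7 control members and 0 in mutant members, at least 76.0-fold lower when the mutant level is set to a floor of 3 counts over the group. For Tecta, leaving out the Epcam-detected cells brought the ratio to −0.05. Ecrg4, a secreted peptide gene, was at 164.6 and 1.32 CPM over all members (−6.97) and at a ratio of −7.36 without the Epcam-detected cells, and was also lower in other mesenchyme (59.5 and 2.90 CPM, −4.36). Otor, a secreted protein of cochlea and cartilage, was at 100.7 and 7.24 CPM (−3.80), of which 5 cells held 96.0% of the control UMIs. Matn1, Acan, Epyc and Cnmd complete the 12.

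The 12 furthest above, taken by the same limits on CPM and interval, held Hspa1a, Hspa1b and 5 HIF and glycolysis genes. The latter were Ndrg1, Egln3, Ddit4, Ero1l and Slc2a3. Beside these stood Foxf1 (41 mutant members), the unnamed transcript Gm42047 (8.06 and 83.9 CPM, 3.38) and 3 muscle genes. Ddit4 was detected in 145 of the 154 mutant members, Ero1l in 92 and Hspa1a in 78. Myl2, a ventricular and slow muscle myosin light chain, was at 1.51 and 51.0 CPM (5.08), with 94.8% of its mutant UMIs in 5 cells. The troponin Tnnt1 was at 10.6 and 69.5 CPM (2.72). Acta2 was at 15.6 and 175 CPM (3.49) over all members and at 27.7 and 36.8 (0.41) in Col2a1-high cells, and with members thinned to 5000 UMIs its ratio was 0.16. Thinned, the ratios of Myl2 and Tnnt1 were −1.34 and −0.76. In the mutant members, 5 cells held 63.0% of the Tnnt1 UMIs and 72.1% of the Acta2 UMIs.

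Markers of other cell types were counted in the members by whole lists. Epithelial markers summed to 839 CPM in control and 403 in mutant members, with 0 of 7 past 2-fold higher and 3 lower, Epcam being the most abundant, and to 14.6 and 17.2 CPM in Col2a1-high cells. Skeletal muscle markers summed to 74.5 and 423 CPM (4 of 4 compared higher of 8 listed), led by Actc1. They stood at 96.3 and 821 CPM in Col2a1-low cells (3 of 3 compared higher), at 81.6 and 88.3 CPM in Col2a1-high cells and at 60.1 and 73.4 CPM in Epcam-detected cells. The share of cells with 2 or more of these markers was 22.2% (14.1 to 32.2) and 25.3% (18.7 to 33.0) of members, 27.3% (10.7 to 50.2) and 26.7% (17.1 to 38.1) of Col2a1-low cells and 30.9% and 23.4% of endothelial cells, so the sums and the shares differed unequally between the libraries. Smooth muscle markers stood at 50.8 and 300.2 CPM (3 of 3 compared higher of 5 listed, led by Acta2), with Myh11 at 0 and 74 UMIs, at least 16.1-fold higher against a floor of 3 counts over the control group. They were at 67.7 and 508 CPM in Col2a1-low cells (3 of 3 compared higher), 77.2 and 130.01 CPM in Col2a1-high cells and 24.0 and 113 CPM in Epcam-detected cells. Cardiomyocyte markers summed to 25.7 and 78.7 CPM (2 of 2 compared higher of 6 listed, led by Myl7). Tendon markers were at 144.5 and 82.6 CPM (0 higher and 2 lower of 4 compared), neuronal markers at 194 and 202 CPM (0 of 5 in either direction), Schwann markers at 102 and 55.6 CPM (1 of 2 lower) and mesothelial markers at 59.4 and 28.6 CPM (0 of 2). Endothelial markers were near 0, at 10.6 and 26.3 CPM over 7 genes, as were immune markers at 4.53 and 2.96 CPM, and none of either list had enough UMIs to compare. Erythroid genes were at 18.1 and 36.9 CPM, with Hbb-y at 2.52 and 17.8, and liver genes at 4.03 and 17.8 CPM. General mesenchyme markers had 1 of 8 higher and 3 lower (3529 and 1305 CPM, led by Col1a1), and Prrx1 was at 186 and 155 CPM and Pdgfra at 84.1 and 92.8. In the Col2a1-high cells, besides the epithelial and muscle sums above, the general mesenchyme markers summed to 6413 and 1981 CPM, tendon to 150.02 and 120.2, neuron to 43.7 and 82.2, Schwann to 29.1 and 39.2, erythroid to 20.4 and 53.97, mesothelium to 16.02 and 1.23, endothelium to 11.7 and 29.4, cardiomyocyte to 11.7 and 23.3, immune to 5.83 and 7.36 and liver to 5.83 and 23.3. The comparison class also differed between libraries in such markers. In other mesenchyme, smooth muscle markers summed to 382 and 1523 CPM (3 of 5 compared higher), skeletal muscle to 285 and 659.5 (6 of 7 higher), liver to 2.52 and 277 (4 of 4 higher, led by Afp), epithelium to 24.6 and 76.2, endothelium to 44.3 and 72.2, neuron to 93.8 and 187, erythroid to 18.1 and 43.9 and mesothelium to 42.8 and 72.1. Immune markers summed there to 27.9 and 1.45 CPM (3 of 3 lower, led by Lyz2), general mesenchyme to 6620 and 2706, tendon to 85.9 and 109, cardiomyocyte to 136 and 149 and Schwann to 18.0 and 18.0. The part of other cell types in the matrix and HIF results, in members or in other mesenchyme, was not tested.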

How the data were processed

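Single-cell RNA-seq libraries (10x Genomics 5′ chemistry) were deposited as filtered gene-by-cell matrices; their values are UMI counts that the authors made with Cell Ranger (version 7.1.0) on mm10, neither normalized nor pooled between genotypes. The control matrix held 4505 cells and 66935720 UMIs and the mutant matrix 5357 cells and 73915525 UMIs. Members, strata and gene lists were chosen with earlier results of these data known. UMIs were summed per class and library, divided by the class total and given as CPM with exact Poisson intervals, ratios with conditional exact binomial intervals and shares with Clopper-Pearson intervals (95%), which cover counting error only. Genes needed 50 UMIs over both libraries, and 2-fold (4-fold against other mesenchyme) set the counts. No test was run, since 1 library per genotype leaves no replicates. Doublets were not called beyond the limits on genes and lineage genes. Named were the rule genes, up to 4 genes of each list by UMIs and list genes past 2-fold. The 12 highest and lowest in each comparison were also named, ranked among genes with 50 or more CPM in the higher library. Between genotypes the counting interval also had to lie beyond 1.5-fold. Xist and the Y-linked genes were not ranked. Against other mesenchyme the limit was 100 CPM in the higher class. Genes of the patterning plot and those named as too low were chosen after their values were seen. Alternatives numbered 15, with 3 more on Epcam and sex chosen after seeing the data. TMM (edgeR 4.0.16, R 4.3.3) and median-ratio scaling both moved the members' ratios by log2 0.02. Python 3.11.15 with numpy 2.4.6, scipy 1.17.1 and pandas 2.3.3 was used, and gene positions come from GENCODE on GRCm38. The ratios were checked on simulated independent Poisson counts. These hold no clustering of UMIs in few cells, so the check says nothing about spread between cells.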

Additional observations from a re-analysis of the deposited data

Results flagged for a closer look

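Pou3f3 and Hapln1 stood on opposite sides in the 2 classes of cells. Pou3f3 had a log2 ratio of mutant over control of 1.12 in other mesenchyme and −1.74 in members, and Hapln1 one of 2.47 in other mesenchyme and −3.56 in members. In members without an Epcam, Matn1 or Acan UMI, Hapln1 was at 21.5 CPM in control and 22.1 in mutant. In mutant other mesenchyme, it was at 59.7 CPM in female-like and 14.6 CPM in male-like cells. The difference between the classes was not tested, since each genotype has 1 library. Outside the limits on genes and mitochondrial share, 5 mutant barcodes and 3 control barcodes met the marker rule and were left out of the counts above.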

How the results depend on the processing

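No paired analysis was possible because each genotype has 1 library. The share of members in control and mutant cells was 1.55% and 1.78% with 10 or more Col2a1 UMIs, 5.28% and 6.99% with 1 or more, 1.44% and 2.67% with none of the 6 lineage genes detected, 1.54% and 2.14% after thinning, 14.2% and 27.6% of members plus other mesenchyme, 2.01% and 3.53% without Epcam-detected cells, and 1.22% and 1.38% with 10 or more Col2a1 UMIs besides. In female-like cells, members were 90 of 2659 in control and 64 of 1173 in mutant (5.46%). Without Epcam-detected cells, they were 56 of 2659 female-like cells in control (2.11%) and 51 of 1173 in mutant. Genes past 2-fold higher and lower numbered 111 and 94 after thinning, 193 and 227 without cells carrying Mki67 or Top2a, 1254 and 3649 with a minimum of 1 UMI and 64 and 116 with a minimum of 200. Female-like cells gave 151 higher, and a Col2a1 minimum of 1 UMI gave 598 lower. Against other mesenchyme, 91 genes were past 4-fold lower with 10 or more Col2a1 UMIs, 18 higher with no lineage gene detected, and 18 higher and 9 lower after thinning. Thinning left 11 HIF targets past 2-fold of the 13 it could compare, 7 of 7 matrix genes and 7 of 12 perichondrial genes, and a minimum of 200 UMIs left 7 matrix genes. Female-like cells had 7 HIF targets and 3 glycolysis genes past 2-fold, and 6 and 5 without Epcam-detected cells. The share over all genes compared is not given at these settings, so the list counts have no background of their own. In these lists the median kept its sign under all 17 alternatives that gave a count. Single genes past 2-fold that reversed were Tecta (0.0022 with no lineage gene detected, 1.34 in Col2a1-high members, 0.26 in female-like members without Epcam), Krt14 (0.34 in Col2a1-high members) and, after thinning, Myl2 (−1.34), Tnnt1 (−0.76) and Krt17 (1.83). Among genes within 2-fold, the sign of Pik3ca changed after thinning (−0.54) and as a mean over cells (−0.14), and that of Sox6 without cells carrying Mki67 or Top2a (0.02). Settings that add or drop cells, genes or molecules change these counts by construction, and other causes were not tested. Depth limits the rest: at the members' totals of 1986284 and 3037765 UMIs, genes such as Ihh or Col10a1 could not be compared.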
